A study of Mus musculus with 9 samples.

Results

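A set of 10 classical leukocyte genes was read on every array of a study of the mouse aortic endothelium, as a measure of white blood cell RNA in each sample and of how it differed with genotype. They are Lyz2, Csf1r, Cd68 and Mertk of monocytes and macrophages, S100a8, S100a9 and Retnlg of neutrophils, and Cd3d, Ighm and Nkg7 of T, B and natural killer (NK) cells. The members are the rows of the value table that the array annotation gives to these symbols, with the brightest row taken per symbol. All 10 were found among 30142 named genes. Each had exactly 1 transcript cluster, the array's unit for a gene, that carries its symbol alone, so the choice by brightness removed nothing. The cluster was selected on its mean deposited value, and the genes were chosen with their values on these arrays known, so their differences are descriptions and support nothing further. Ighm is also named on 4 clusters that carry other symbols too, and these were not used.

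Endothelial RNA came from the thoracic aortas of female mice, lysed in place by a lysis reagent that was flushed along the lumen, and each array held the RNA of 1 aorta. Both groups were homozygous for floxed alleles (f/f) of Mef2a, Mef2c and Mef2d, which encode MEF2 transcription factors, and both received 5 daily tamoxifen injections at 10 weeks of age. ACDiEKO mice carried Cdh5-CreERT2, a tamoxifen-activated recombinase driven by the promoter of the endothelial gene Cdh5, and controls were littermates without it, so an effect of the recombinase itself cannot be told apart from that of the deletions. The time of harvest is not settled: counted from the first injection it is 7 days in the series text but 14 days in the sample protocols. There were 4 control and 5 ACDiEKO arrays. ACDiEKO replicates 1 and 2 were nearly identical (robust SD of their difference over bright clusters 0.0707, against 0.268 to 0.401 in the other 15 pairs of arrays of the same group) and were averaged to 1 sample, which left 4 samples against 4. Since 2 control titles share the number 3, the later one is named control replicate 4 here.

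White blood cells meet the endothelium as part of normal traffic and, in larger numbers, during inflammation, when they roll on, adhere to and cross it. Resident macrophages also live in the outer wall of the aorta, and blood left in the lumen carries neutrophils, monocytes and lymphocytes. A flush of the lumen is meant to collect endothelial RNA, and any white cells lysed with it add their own transcripts. In such bulk RNA, more cells of a type and more RNA per cell cannot be told apart.

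The labelled cell type was checked with markers. The mean of 13 endothelial markers lay between 12.99 and 13.45 (log2) in the 8 samples, but single markers moved in both directions. Of the 13, 2 rose and 3 fell in ACDiEKO (limma, Benjamini-Hochberg over all genes, where 6.54% of genes passed): Emcn, a sialomucin of capillary and venous endothelium, rose by 3.72 and Eng, a TGF-beta co-receptor, by 1.53. Cldn5, a tight junction protein, fell by 3.59, Tek, the angiopoietin receptor, fell by 1.92 and Pecam1 fell by 0.37. Of 11 smooth muscle markers, 5 rose, among them Tagln by 3.82 and Acta2 by 3.19, and of 9 adventitial fibroblast markers 1 passed, Pi16, which fell by 2.41. Pecam1, the adhesion molecule of endothelial junctions, was at 17.07 or more on every array, where the table runs from 2.58 to 19.34. Markers of other cells were also high in the table: over the 8 samples Acta2 ran from 13.14 to 17.92 and the fibroblast marker Mfap5 from 14.57 to 15.51. These levels therefore do not show what share of the RNA was endothelial. Values are log2 units of the deposited table. Since they reach above the 16 log2 units that a scanner spans, a scaling step that the sources used here do not give was applied, and differences are given in log2 units and never as folds. Levels of different genes are not read as relative amounts of RNA, because different probes have different brightness.

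The windows upstream of 6 members are shown because Lyz2, Cd68, S100a8, S100a9 and Retnlg had their highest and lowest values in the same samples and Mertk did not. Csf1r also had its highest and lowest values in those samples, but its window was not among those used here. Each sequence holds the 250 bases before the gene's start, 5′ to 3′ on the strand of the gene, from RefSeq (GRCm38.p6). Capitals mark the core of the site of PU.1, the master factor of myeloid cells (GAGGAA), the core of the C/EBP factors, which act in granulocytes and monocytes (TTNNGNAA), and the TATA box (TATAAA), each searched on both strands.
S100a8, chr3:90668821-90669070, plus strand: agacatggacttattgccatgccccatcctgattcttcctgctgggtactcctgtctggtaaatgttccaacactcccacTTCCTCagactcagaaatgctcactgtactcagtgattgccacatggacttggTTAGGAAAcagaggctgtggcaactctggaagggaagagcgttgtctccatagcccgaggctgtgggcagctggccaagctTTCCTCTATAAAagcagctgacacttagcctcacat
S100a9, chr3:90695722-90695971, minus strand: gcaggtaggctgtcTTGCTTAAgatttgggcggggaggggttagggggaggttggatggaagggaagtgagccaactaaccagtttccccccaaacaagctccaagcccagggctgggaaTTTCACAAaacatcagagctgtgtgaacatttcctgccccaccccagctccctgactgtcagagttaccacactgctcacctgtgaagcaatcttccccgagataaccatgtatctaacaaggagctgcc
Retnlg, chr16:48872358-48872607, plus strand: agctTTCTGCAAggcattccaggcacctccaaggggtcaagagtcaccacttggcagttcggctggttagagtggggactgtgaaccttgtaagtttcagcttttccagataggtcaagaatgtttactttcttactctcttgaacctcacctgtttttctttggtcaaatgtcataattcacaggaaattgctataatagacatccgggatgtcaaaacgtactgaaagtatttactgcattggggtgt
Lyz2, chr10:117282273-117282522, minus strand: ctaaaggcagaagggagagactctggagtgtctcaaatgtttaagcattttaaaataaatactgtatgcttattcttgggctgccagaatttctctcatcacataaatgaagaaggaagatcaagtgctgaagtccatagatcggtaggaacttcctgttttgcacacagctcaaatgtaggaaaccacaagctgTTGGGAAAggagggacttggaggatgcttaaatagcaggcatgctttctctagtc
Cd68, chr11:69666171-69666420, minus strand: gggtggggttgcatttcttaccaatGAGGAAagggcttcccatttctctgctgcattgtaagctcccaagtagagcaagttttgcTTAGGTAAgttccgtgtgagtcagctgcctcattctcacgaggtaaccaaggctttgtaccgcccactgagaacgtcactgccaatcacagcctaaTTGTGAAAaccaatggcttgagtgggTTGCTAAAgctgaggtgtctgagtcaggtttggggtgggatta
Mertk, chr2:128698665-128698914, plus strand: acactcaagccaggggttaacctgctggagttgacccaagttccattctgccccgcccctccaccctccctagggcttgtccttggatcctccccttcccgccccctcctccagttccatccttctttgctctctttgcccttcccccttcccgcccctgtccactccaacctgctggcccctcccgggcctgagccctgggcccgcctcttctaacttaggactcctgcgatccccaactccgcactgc

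The S100a8 window held 2 PU.1 cores, 1 C/EBP core and a TATA box that begins 30 bases before the start, directly after a PU.1 core on the opposite strand. S100a9 held 2 C/EBP cores, Cd68 held 3 with 1 PU.1 core, Retnlg and Lyz2 held 1 each, and Mertk held none of the 3 motifs. Of the windows not shown, that of the T cell gene Cd3d, with another order of samples, held 2 PU.1 cores and 1 C/EBP core. The Nkg7 window held none of the 3 motifs. Such cores are common: of 32851 promoter windows of this length, 36.8% held the C/EBP core, 23.3% the PU.1 core and 12.4% the TATA box. The consensus site of the MEF2 factors, also searched on both strands, was present in 2.92% of windows and in none of the 8 windows that were available for members. A match is a description of the letters and not evidence of binding, and no match says only that these letters are not in this window.

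Of the 10 leukocyte genes, 9 had their highest value in the same sample, ACDiEKO replicate 5, and the remaining one, Mertk, did not. Over all 30142 genes, ACDiEKO replicate 5 was the highest of the 8 samples for 11.6%. In that sample the genes lay between 0.13 (Mertk) and 4.08 (Lyz2) log2 units above the median of the other 7 samples. Outside it the order of the samples differed between the gene classes, as the following values show. That this sample is high in immune markers was known before these genes were chosen, so its place here is a description and was not tested.

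**Figure D1:**
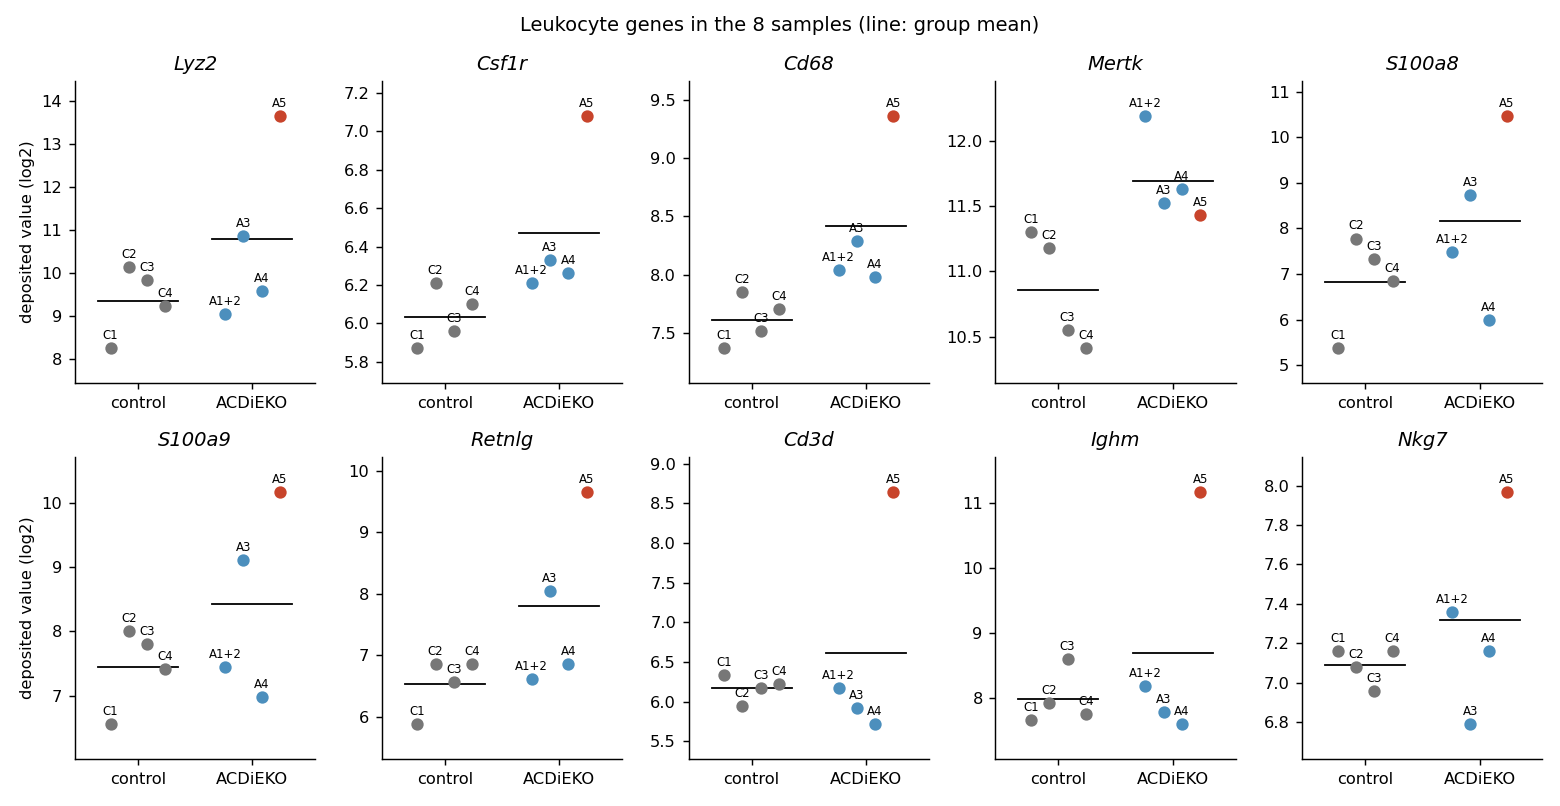
Deposited log2 value of each of the 10 genes (vertical axis, separate scale per gene) in 4 control samples (grey, C1 to C4) and 4 ACDiEKO samples (blue and red, A1+2 to A5), where A1+2 is the mean of the near-identical arrays and the horizontal line the group mean. ACDiEKO replicate 5 (red) is the highest sample for every gene but Mertk, whose highest value is 12.19 in A1+2.

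Lyz2 encodes lysozyme, an antibacterial enzyme made in bulk by macrophages, monocytes and neutrophils. In control replicates 1 to 4 it was at 8.24, 10.13, 9.83 and 9.22, and in ACDiEKO it was at 9.05 in the averaged pair and at 10.85, 9.58 and 13.66 in replicates 3, 4 and 5. ACDiEKO replicate 5 stood 2.81 log2 units above the next sample, while the other 7 spanned 2.61 and the groups overlapped. The control mean was 9.36 ± 0.83 and the ACDiEKO mean 10.79 ± 2.06 (SD, n = 4 each), a difference of 1.43 (SE 1.01, limma adjusted p = 0.45). Without ACDiEKO replicate 5 the difference was 0.47 (SE 0.60, limma adjusted p = 0.683). Lyz1 (like Retn, Retnla, Csf1 and Axl below, chosen after its value was seen), a near-identical neighbour whose probes may share signal with Lyz2, had the same highest sample (11.64, against 7.00 to 8.54 in the others).

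Csf1r encodes the receptor for CSF1, the growth factor on which monocytes and macrophages depend. It was at 5.87, 6.21, 5.96 and 6.10 in control replicates 1 to 4, at 6.21 in the averaged pair and at 6.33, 6.26 and 7.08 in ACDiEKO replicates 3, 4 and 5. This was a dim feature: only 6 of its 9 array values lay above the median of the whole table, 6.165. Outside ACDiEKO replicate 5 the samples spanned 0.46, and the groups met at 6.21. The difference between groups was 0.44 (SE 0.20, limma adjusted p = 0.255), and 0.23 (SE 0.09, limma adjusted p = 0.204) without ACDiEKO replicate 5.

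Cd68, a glycoprotein of lysosomes in macrophages, was at 7.37, 7.85, 7.52 and 7.71 in control replicates 1 to 4. In ACDiEKO it was at 8.04 in the averaged pair and at 8.29, 7.98 and 9.36 in replicates 3, 4 and 5. All ACDiEKO samples lay above all controls, also with replicate 5 left aside (7.98 to 8.29 against 7.37 to 7.85). The difference was 0.81 (95% interval 0.08 to 1.53, limma adjusted p = 0.184), and 0.49 (0.16 to 0.82, limma adjusted p = 0.106) without replicate 5. Neither passed the threshold of 0.05.

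Mertk encodes a receptor tyrosine kinase with which macrophages take up dying cells, and other cell types carry it as well. Its values were 11.30, 11.18, 10.55 and 10.41 in control replicates 1 to 4, 12.19 in the averaged pair and 11.52, 11.63 and 11.43 in ACDiEKO replicates 3, 4 and 5. The groups did not overlap, and ACDiEKO replicate 5 was the lowest of its group, in contrast to its place for the other 9 genes. The difference was 0.83 (SE 0.26, 95% interval 0.23 to 1.44, limma adjusted p = 0.113) and was 0.92 (SE 0.29, limma adjusted p = 0.138) without replicate 5. Control replicates 3 and 4, whose animal numbers in the titles lie apart from the rest, held the lowest Mertk values, and without them the difference was 0.45 (limma adjusted p = 0.389). The mean of 11 smooth muscle markers also separated the groups (8.39 to 9.42 in control, 9.82 to 10.82 in ACDiEKO), and with it as a covariate the Mertk difference was -0.17 (limma adjusted p = 1). As that mean separated the groups, the fit with it cannot tell it well from the genotype, and 0 of 30142 genes passed in it. The part of the smooth muscle RNA and of the animal numbers in the Mertk values was not tested beyond these fits.

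S100a8 and S100a9 encode the subunits of calprotectin, a calcium-binding complex that fills the cytoplasm of neutrophils, and the genes lie near each other on chromosome 3. S100a8 was at 5.37, 7.78, 7.34 and 6.85 in control replicates 1 to 4, at 7.49 in the averaged pair and at 8.73, 6.0 and 10.47 in ACDiEKO replicates 3, 4 and 5. S100a9 was at 6.56, 8.0, 7.81 and 7.42 in the controls, at 7.44 in the averaged pair and at 9.10, 6.98 and 10.17 in ACDiEKO replicates 3, 4 and 5. Both genes put the samples in nearly the same order: ACDiEKO replicate 5 was highest, ACDiEKO replicate 3 next and control replicate 2 after it, and control replicate 1 was lowest. The groups overlapped for both. S100a8 differed by 1.34 (SE 0.99, limma adjusted p = 0.469) and S100a9 by 0.98 (SE 0.73, limma adjusted p = 0.475). Without ACDiEKO replicate 5 the differences were 0.57 (limma adjusted p = 0.718) and 0.40 (limma adjusted p = 0.73). S100a8 also moved with other samples: its difference was 0.85 without control replicate 1 and 2.06 without ACDiEKO replicate 4.

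Retnlg encodes a resistin-like secreted protein found mainly in neutrophils and bone marrow. It was at 5.88, 6.85, 6.56 and 6.85 in control replicates 1 to 4, at 6.62 in the averaged pair and at 8.04, 6.85 and 9.66 in ACDiEKO replicates 3, 4 and 5. As for the calprotectin genes, ACDiEKO replicate 3 followed replicate 5 and control replicate 1 was lowest. The difference was 1.25 (SE 0.67, limma adjusted p = 0.321), and 0.63 (SE 0.41, limma adjusted p = 0.425) without replicate 5. Its relatives Retn and Retnla also had their highest value in ACDiEKO replicate 5, Retn at 9.72 against 6.4 to 7.22 in the other 7 samples and Retnla at 10.14 against 6.18 to 8.92.

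Cd3d encodes a chain of the CD3 complex, the signalling part of the T cell receptor. It was at 6.34, 5.95, 6.17 and 6.22 in control replicates 1 to 4, at 6.18 in the averaged pair and at 5.92, 5.72 and 8.65 in ACDiEKO replicates 3, 4 and 5. The other 7 samples spanned 0.62, and ACDiEKO replicate 5 stood 2.31 above the highest of them. The group difference was 0.45 (SE 0.63, limma adjusted p = 0.718) and turned to -0.23 (SE 0.13, limma adjusted p = 0.377) without that sample. ACDiEKO replicate 3, second for the 3 neutrophil genes, was among the lowest for Cd3d.

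Ighm encodes the heavy chain constant region of immunoglobulin M, made by B cells and plasma cells. Its values were 7.66, 7.92, 8.60 and 7.76 in control replicates 1 to 4, 8.19 in the averaged pair and 7.79, 7.60 and 11.18 in ACDiEKO replicates 3, 4 and 5. ACDiEKO replicate 5 was 2.57 above control replicate 3, the next sample, and the other 7 spanned 1.00. The difference was 0.71 (SE 0.79, limma adjusted p = 0.639) and became -0.12 (SE 0.26, limma adjusted p = 0.818) without that sample.

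Nkg7 encodes a granule membrane protein of NK cells and cytotoxic T cells. It was at 7.16, 7.08, 6.96 and 7.16 in control replicates 1 to 4, at 7.36 in the averaged pair and at 6.79, 7.16 and 7.97 in ACDiEKO replicates 3, 4 and 5. Its excess in ACDiEKO replicate 5 over the next sample was 0.62, beside a span of 0.57 in the other 7. The difference was 0.23 (SE 0.23, limma adjusted p = 0.601), and 0.01 (SE 0.14, limma adjusted p = 0.98) without replicate 5.

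None of the 10 genes passed the test between ACDiEKO and control (limma, Benjamini-Hochberg over 30142 genes), where 6.54% of all genes passed, 3.61% higher and 2.92% lower in ACDiEKO. At an unadjusted p under 0.05, 2 of the 10 (Cd68 and Mertk) fell below it, against 22.3% of all genes. All 10 differences were positive, with a median of 0.82 against -0.03 over all genes. Without ACDiEKO replicate 5, again none of the 10 passed (4.91% of all genes, 2.87% higher and 2.04% lower in ACDiEKO), 3 had an unadjusted p under 0.05 (21.3% of all genes), 8 differences were positive and their median was 0.43. The groups did not overlap for 2 of the 10, both higher in ACDiEKO, against 6.94% of all genes that lay higher without overlap. Intervals were wide where ACDiEKO replicate 5 stood apart: for Lyz2 the 95% interval ran from -0.96 to 3.82, so these arrays do not show that the groups were alike.

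**Figure D2:**
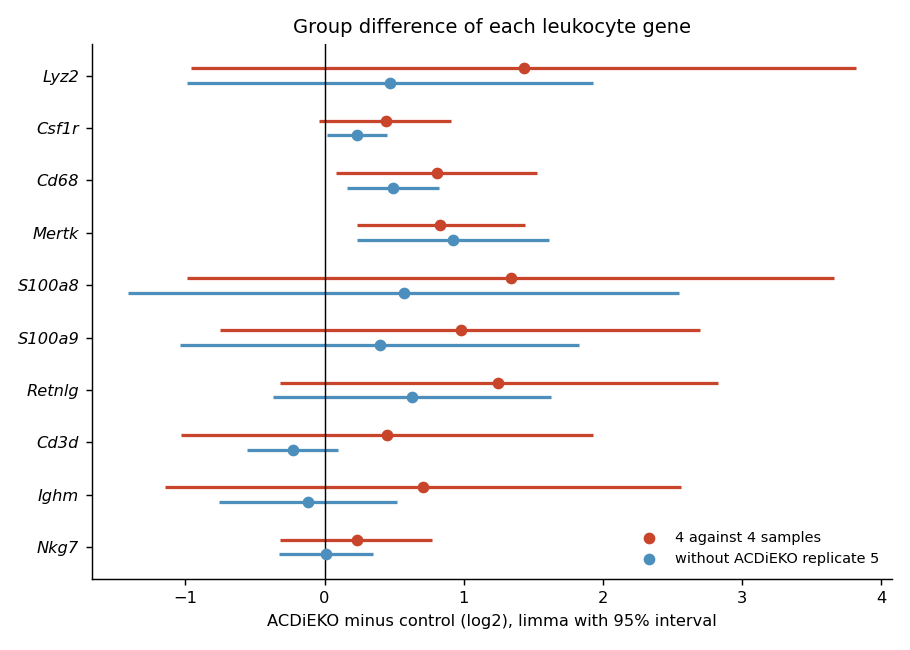
Difference between ACDiEKO and control in log2 units (horizontal axis) for each gene, from limma with its 95% interval, over 4 against 4 samples (red) and without ACDiEKO replicate 5 (blue). Leaving out that sample moves Lyz2 from 1.43 to 0.47 and Cd3d from 0.45 to -0.23, while Mertk moves from 0.83 to 0.92.

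Wider marker lists showed which leukocyte classes were high in which sample. The 7 lists without the 10 genes (all leukocytes, macrophages, neutrophils, antigen-presenting, T, B and NK or cytotoxic cells) held 110 measured genes, and ACDiEKO replicate 5 was the highest sample for 84 of them, or 76.4%. Of these 110 genes, 33 lay more than 1 log2 unit above the median of the other 7 samples there, against 1.63% of all genes. These were 9 of 14 genes of all leukocytes, 7 of 21 neutrophil, 6 of 20 macrophage and 5 of 16 T cell genes. Fewer came from antigen-presenting (3 of 14), NK or cytotoxic (2 of 12) and B cell genes (1 of 13). Of the 110 list genes, 31 stayed below the table median of 6.165 in every sample, where a difference can be understated. So did 12175 of all 30142 genes, so the lists were not dimmer than the array as a whole.

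Genes listed for all leukocytes, though some such as Tyrobp and Fcer1g are not expressed by every class, were highest in ACDiEKO replicate 5 in 14 of 14 cases. Their mean was 8.98 there, against 7.03 to 7.35 in controls and 7.21 to 7.44 in the other ACDiEKO samples. Tyrobp, an adaptor of activating receptors, was at 11.84 there, against 7.04 to 8.99 elsewhere. Ptprc, the pan-leukocyte phosphatase CD45 (chosen after its value was seen), was at 9.86 against 6.74 to 7.58. Arhgdib, the brightest gene of this list and one that endothelial cells also express, was at 11.45 there against 10.79 to 11.08.

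The macrophage list had its highest sample in ACDiEKO replicate 5 for 11 of 20 genes, with a list mean of 7.60 against 6.49 to 6.92 in the other samples. Ctss, a lysosomal protease, was at 10.18 there, against 7.12 to 8.12. Adgre1, a surface receptor of mature macrophages (chosen after its value was seen), was at 10.05 against 6.24 to 7.65. Lyve1, carried by resident macrophages of vessel walls and by lymphatic endothelium, was not: it was highest in control replicate 4 (8.93) and stood at 8.31 in ACDiEKO replicate 5. In that sample Cd163, Ms4a7 and Clec4n (chosen after their values were seen) lay at their median of the other 7 samples (6.64, 6.05 and 6.28). Of the 20 genes, 6 lay more than 1 log2 unit above that median.

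Neutrophil genes were highest in ACDiEKO replicate 5 in 16 of 21 cases, with a list mean of 6.83 against 5.81 to 6.23. Ngp, a granule protein of neutrophil precursors, was at 9.75 there against 5.77 to 7.43, and Pglyrp1, a peptidoglycan-binding granule protein, at 9.62 against 7.32 to 9.61, the last in control replicate 3. Ly6g, the standard surface marker of mouse neutrophils (chosen after its value was seen), was at 5.69 in ACDiEKO replicate 5 and highest in control replicate 2 (7.39). Among the other 7 samples, control replicate 2 was highest for 9 of the 21 genes, or 42.9%, against 21.1% of all genes.

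T cell genes were highest in ACDiEKO replicate 5 in 14 of 16 cases, and the list mean was 6.71 against 5.68 to 5.87. Lat, an adaptor of T cell receptor signalling, was at 9.22 against 7.62 to 8.03, and Cd8b1, a chain of the CD8 co-receptor, at 9.45 against 6.35 to 7.06. B cell genes were highest there in 11 of 13 cases, with a list mean of 6.39 against 5.71 to 5.92. Only 1 of the 13 lay more than 1 log2 unit above the median of the other 7 samples. In every sample, 6 of the 13 stayed below the table median. Bank1, a B cell scaffold protein, was at 7.26 against 6.24 to 6.39. Ebf1, a B cell factor that other cell types of the vessel wall also express, was highest in control replicate 4 (9.19) and was at 8.14 in ACDiEKO replicate 5.

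**Figure D3:**
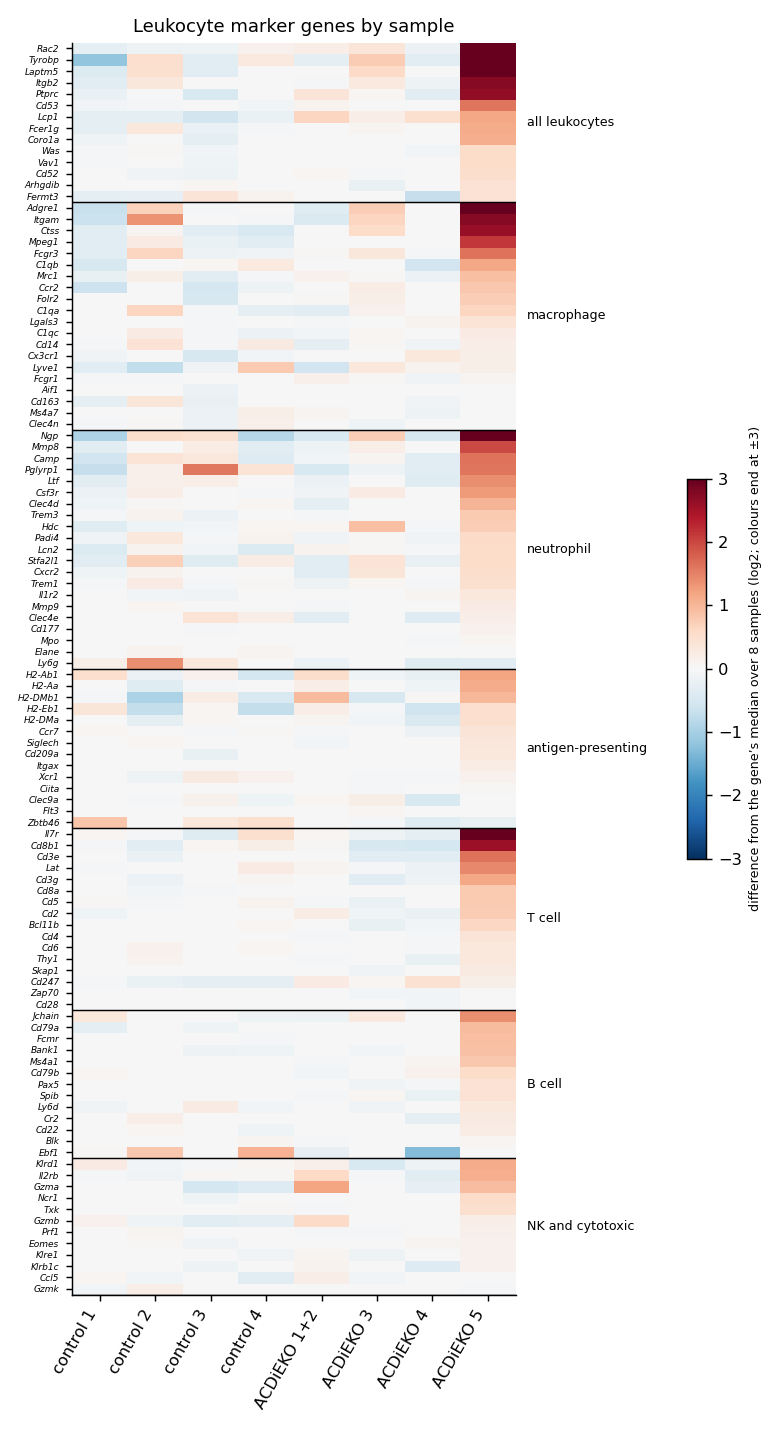
Measured genes of 7 leukocyte marker lists (rows, ordered within each list by their difference in ACDiEKO 5) in the 8 samples (columns), coloured by the difference from the gene's median over the samples in log2 units, with colours ending at 3 in either direction. The last column, ACDiEKO 5, is the highest for 84 of 110 genes.

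NK and cytotoxic genes were less uniform. Of 12, ACDiEKO replicate 5 was highest for 8 and the averaged pair for 3, and the list means were 6.04 and 5.87, against 5.53 to 5.65 in controls. Gzma, a protease of cytotoxic granules, was at 7.50 in the averaged pair and 7.23 in ACDiEKO replicate 5, against 5.77 to 6.32 in the other samples. Klrd1, the receptor chain CD94, was at 7.47 in ACDiEKO replicate 5 and at most 6.58 elsewhere. Antigen-presenting genes were highest in ACDiEKO replicate 5 in 10 of 14 cases, with H2-Ab1, an MHC class II chain, at 10.68 against 8.98 to 10.02 and H2-Eb1 at 9.58 against 8.36 to 9.43.

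Other blood cells followed this order in part. The platelet mean was highest in ACDiEKO replicate 5 (7.45) and next in ACDiEKO replicate 3 (7.24), the order of Lyz2, S100a8, S100a9 and Retnlg. The neutrophil list mean was next highest in control replicate 2 (6.23, against 6.16 in ACDiEKO replicate 3). Mast cell and basophil genes had their highest mean in control replicate 2 (6.08, against 5.99 in ACDiEKO replicate 5), where the mast cell proteases Cpa3 (7.18) and Mcpt4 (7.10) were highest. Alas2, an enzyme of haem synthesis in red cell precursors, was highest in control replicate 1 (11.89), the sample with the lowest Lyz2, S100a8, S100a9 and Retnlg, and was at 11.59 in ACDiEKO replicate 5. Of 6 platelet genes only Pf4, a chemokine of platelets and of some macrophages, was highest in ACDiEKO replicate 5 (11.52 against 7.74 to 9.82), while the platelet receptor chain Gp9 was at 7.82 there and between 7.73 and 8.32 elsewhere. Smooth muscle and endothelial marker means of ACDiEKO replicate 5 (10.07 and 13.22) lay within the range of the other 7 samples, and its fibroblast mean (9.66) was the highest, 0.12 above the next. Of the 2 brightest fibroblast genes, Dcn was at 14.06 there against 11.69 to 13.79. Mfap5 was at 15.07, within 14.57 to 15.51 of the other samples.

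**Figure D4:**
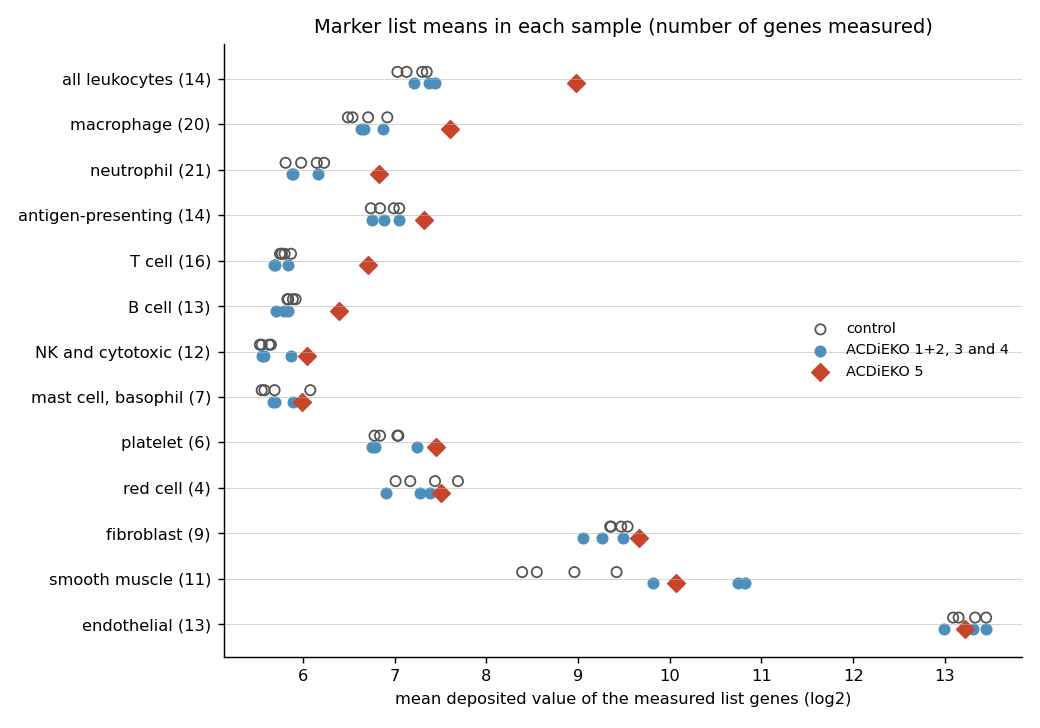
Mean deposited log2 value of the measured genes of 13 marker lists (horizontal axis; the number of genes stands beside each name) in 4 control samples (open circles), in ACDiEKO 1+2, 3 and 4 (blue) and in ACDiEKO 5 (red diamond). ACDiEKO 5 has the highest mean of the 7 leukocyte lists, by 1.54 over the next sample for all leukocytes and by 0.17 for NK and cytotoxic genes, and lies within the range of the other samples for mast cell, red cell, smooth muscle and endothelial markers.

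Between the groups, 2 of the 110 list genes passed limma with Benjamini-Hochberg adjustment over all genes, and none fell, where 6.54% of all genes passed. Lcp1, the actin-bundling protein plastin 2 of leukocytes, rose from 7.31 ± 0.15 to 8.26 ± 0.40 (SD, n = 4 and 4), by 0.95 (limma adjusted p = 0.0338), and still passed without ACDiEKO replicate 5 (0.77, limma adjusted p = 0.0272). Cd247, the zeta chain of the T cell receptor complex, rose from 6.37 ± 0.11 to 6.81 ± 0.17, by 0.44 (limma adjusted p = 0.0423), and did not pass without that sample (0.46, limma adjusted p = 0.0757). For both, every ACDiEKO sample lay above every control. Cd247 was highest in ACDiEKO replicate 4 (7.04), where Cd3d was lowest (5.72). Without ACDiEKO replicate 5, 2 of the 16 T cell list genes had a positive difference. The largest medians among the 7 lists were 0.44 for genes of all leukocytes and 0.16 for macrophage genes, against -0.03 over all genes. Without ACDiEKO replicate 5 they were 0.09 and 0.05. Both calls ended when control replicate 2, 3 or 4 or ACDiEKO replicate 4 was left out, that of Lcp1 also without control replicate 1 and that of Cd247 also without ACDiEKO replicate 1 (limma adjusted p up to 0.0863 for Lcp1 and 0.113 for Cd247). They also ended without control replicates 3 and 4 together (limma adjusted p = 0.179 and 0.238), with a term for the run of animal numbers (0.126 and 0.162) and with the smooth muscle mean as a covariate, where Lcp1 differed by 0.83 (limma adjusted p = 0.848) and Cd247 by 0.02 (limma adjusted p = 1). That covariate separates the groups, and 0 of 30142 genes passed with it, so the loss of a call there is not particular to these 2 genes.

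Of 14 ligands, sister receptors and relatives of the 10 genes, 1 fell and none rose, a share near the 6.54% of all genes that passed. Pros1, protein S, a ligand of the Mertk receptor, fell by 0.65 (from 9.67 ± 0.12 to 9.02 ± 0.30, n = 4 and 4, limma adjusted p = 0.0471), and the call ended without ACDiEKO replicate 5 (limma adjusted p = 0.091) and without any of 7 other arrays left out in turn (highest adjusted p = 0.114). It ended as well once the run of animal numbers entered the model (limma adjusted p = 0.156) and with the smooth muscle covariate (-0.34, limma adjusted p = 0.951), under which 0 of all genes passed. Gas6, the other main ligand of Mertk, differed by -0.53 (limma adjusted p = 0.062) and did pass without ACDiEKO replicate 5 (-0.62, limma adjusted p = 0.0477). Csf1, a ligand of the Csf1r receptor, was higher in every ACDiEKO sample but did not pass (0.62, limma adjusted p = 0.123). Tlr4, a receptor for calprotectin, differed by -0.08 (limma adjusted p = 0.824) and Axl, the sister receptor of Mertk, by -0.02 (limma adjusted p = 0.965).

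Likeness of pattern was measured as Pearson's correlation of deviations from the group means over the 8 samples, among 16375 genes whose mean lay above the table median. It is a description over few samples, most of it set by ACDiEKO replicate 5, so the value over the other 7 samples stands beside it. The genes most like Lyz2 were Alox15, a lipoxygenase (0.986, and 0.95 without ACDiEKO replicate 5), Adgre1 (0.984 and 0.94), the integrin chain Itga6 (0.98 and 0.92), Tspan32 (0.975 and 0.93), Timd4, a receptor of resident macrophages for dying cells (0.974 and 0.91), Ngp (0.974 and 0.91), Retnlg (0.973 and 0.90) and Csf3r, the receptor for the granulocyte growth factor (0.972 and 0.95). Alox15 spanned the widest range of these: it was at 6.66, 8.99, 8.04 and 8.21 in control replicates 1 to 4, at 7.43 in the averaged pair and at 10.19, 8.76 and 13.77 in ACDiEKO replicates 3, 4 and 5. Macrophage and neutrophil genes thus stood together in this list.

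The genes most like S100a8 were S100a9 (0.975, and 0.95 without ACDiEKO replicate 5), Gm23977 (0.957 and 0.92), Pf4 (0.954 and 0.92), Ltbp1 (0.953 and 0.93), Mtfr1l (0.952 and 0.91), Aspn (0.949 and 0.90), Rgs18 (0.947 and 0.89) and Prkce (0.946 and 0.90). Several of these hardly varied in size: Prkce ran only from 8.12 to 8.26 over the 8 samples, so likeness of pattern is not likeness of amount. Among the 10 genes themselves, Lyz2 and Retnlg kept 0.90 over the 7 other samples, whereas Lyz2 and Cd3d went from 0.79 over 8 samples to -0.61 over 7, and Lyz2 and Nkg7 from 0.54 to -0.81. The joint pattern of Cd3d and Nkg7 with the myeloid genes other than Mertk therefore rested on ACDiEKO replicate 5. Over the other 7 samples Ighm kept 0.22 with Lyz2, 0.45 with S100a8 and 0.30 with S100a9. With Csf1r, Cd68 and Retnlg it was at -0.17, -0.05 and -0.02. The pattern among Lyz2, S100a8, S100a9 and Retnlg was also present in those 7 samples, where Csf1r and Cd68 kept 0.72 and 0.80 with Lyz2. Mertk did not share it: its correlation was -0.50 with Lyz2 over 8 samples and -0.49 over 7. With Retnlg it was -0.56 and -0.60, and it was negative with the other myeloid members too.

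**Figure D5:**
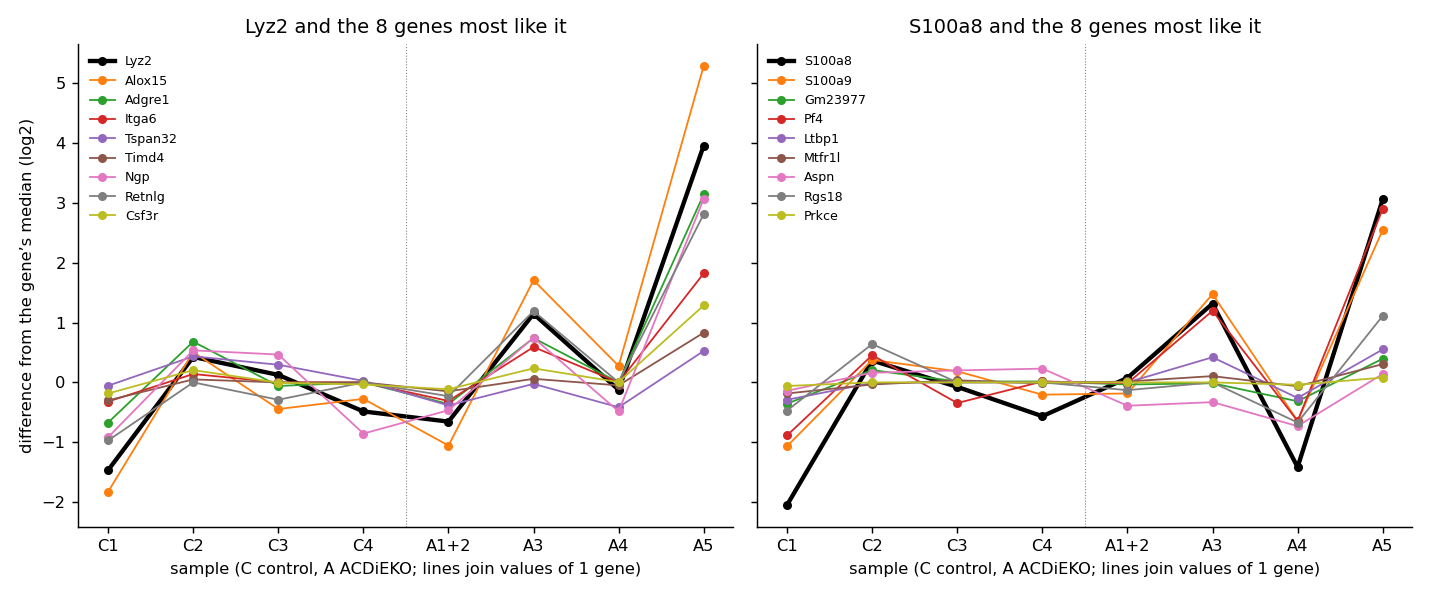
Difference of each gene from its own median in log2 units (vertical axis) over the 8 samples (horizontal axis, C control and A ACDiEKO), for Lyz2 (left) and S100a8 (right) in black with the 8 genes most like each in colour. Besides ACDiEKO 5, Lyz2 and S100a8 are high in ACDiEKO 3 (10.85 and 8.73) and low in control 1 (8.24 and 5.37).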

How the data were processed

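The study used 9 mouse Clariom D arrays (5 ng RNA each, WT Pico labelling, per the labels). The authors deposited log2 values. RMA, which they name in the submitters' processing notes, subtracts background, brings arrays to a common distribution and yields a single value per transcript cluster. Version, annotation and genome build are not given in the sources used here. Of 72688 features, 6732 controls were left out. Of the 65956 clusters, 30604 carry 1 symbol, which gave 30142 genes, the brightest cluster each, after 827 symbols were updated through gene IDs.

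Groups were compared with limma 3.58.1 (R 4.3.3, ACDiEKO minus control, two-sided, Benjamini-Hochberg threshold 0.05) with no filter on dim genes, so that every member is in 1 fit. The table median (6.165) and 75th percentile (8.417) served as filters in alternatives. The fit was checked on simulated data. The 10 genes and the marker lists were chosen with earlier results of these data known, and list genes without a cluster of their own (such as Spi1 and the globins) were not analysed here. The rule for named list genes takes those past the threshold (up to 4 per list) and the 2 brightest of each list. In the endothelial, smooth muscle and red cell lists the genes named depart from this rule. Ptprc, Adgre1, Cd163, Ms4a7, Clec4n, Ly6g, Lyz1, Retn, Retnla, Csf1 and Axl lie outside the rule and were chosen after their values were seen. Alternatives were filters, scalings, clusters averaged, variance models, array weights, samples left out, a replicate block, animal numbers and a smooth muscle covariate. The number of arrays limits the precision. Figures were drawn with matplotlib 3.10.9.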

Additional observations from a re-analysis of the deposited data

Results flagged for a closer look

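In 24 measures (the 10 genes and 14 list means) the highest and lowest sample of each group of 4 was compared with its nearest neighbour, and 5 of 48 groups had a sample whose gap was above the 95% critical value of Dixon's ratio of gap to range. Chance alone flags about 1 in 20 groups, but these genes and lists were chosen with ACDiEKO replicate 5 known to be high in immune markers, so the count is a description and not a test of that sample. All 5 were ACDiEKO replicate 5 as the highest of its group: Csf1r (7.08, gap 0.869 of the range), Cd3d (8.65, 0.844), Ighm (11.18, 0.835), the mean of the genes of all leukocytes (8.98, 0.866) and the mean of the T cell genes (6.71, 0.843). Over all 30142 genes, this sample stood apart as the highest of its group in the same way for 2.76%. Lyz2, S100a8, S100a9 and Retnlg did not meet the criterion.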

How the results depend on the processing

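Over 21 or 22 alternatives per gene, none of Lyz2, Csf1r, Cd68, S100a8, S100a9, Retnlg, Cd3d, Ighm and Nkg7 passed limma under any. Mertk was called under 2: a filter at the 75th percentile (1 of the 2 members tested was called; 0.83, adjusted p = 0.0393) and the replicate block with all 9 arrays (1 member called; 0.99, adjusted p = 0.00866). Over its alternatives the adjusted p of Mertk ran from 0.00866 to 1. The replicate block enters the near-identical ACDiEKO replicates 1 and 2 as separate samples, so its adjusted p counts that pair as 2. The sign of Mertk turned to -0.17 with the smooth muscle covariate. Cd3d turned to -0.09 with the replicate block and to -0.23 without ACDiEKO replicate 5, and Ighm to -0.12 without that sample. With each array left out in turn, Cd3d ran from -0.23 to 0.75 and Ighm from -0.12 to 1.07. With the smooth muscle covariate, Lyz2 was at 4.58, S100a8 at 4.91, S100a9 at 3.79 and Retnlg at 3.49, none of them called. The numbers after "rep" do not pair the arrays (correlations of deviations between same-numbered arrays -0.145 to 0.0413), and the replicate block leaves ACDiEKO replicates 4 and 5 without weight. Of the 110 list genes, 2 were called in the reported fit and 0 with the 75th percentile filter, which removes both (Lcp1 and Cd247) before the test. It was also 0 without both near-identical arrays, without control replicates 3 and 4 together, with a term for the run of animal numbers, or with the smooth muscle covariate. The 1970 calls over all genes became 3050 with all 9 arrays as samples, 996 without both near-identical arrays, 301 without control replicates 3 and 4, 1022 with the run term and 0 with the covariate. Leaving out each array in turn gave 0 members, 0 to 2 list genes and 854 to 1937 of all genes called; all genes fell to 1251, 1078 and 1012 without control replicate 2, 3 and 4 and to 854 without ACDiEKO replicate 4. The causes were not tested. The 31 list genes below the table median in every sample limit what can be seen of rare cell types.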
